A study of Mus musculus with 3 samples.

Results

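Bone, cartilage and tendon share a connective tissue origin, and each lineage is recognised by a small number of genes. The 10 genes followed here were chosen by name as such markers: Runx1, Runx2, Sp7, Alpl, Msx1 and Dlx5 for bone, Sox9 and Acan for cartilage, and Scx and Tnmd for tendon. They are 10 of the 56833 genes in the deposited table, and each has 1 row. All 10 had reads in every library, and 8 had a mean of at least 50 normalized counts over the 3 libraries. Dlx5 and Acan lay below that minimum.

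The cells came from mouse ankle synovium, the soft tissue that lines the joint, and the labels call them telocytes, an interstitial cell type with long thin processes. All 3 groups carried the genotype Efhd1CreER; Ai9. In it an inducible Cre recombinase (CreER), expressed with Efhd1, can turn on the red fluorescent protein tdTomato once it is induced. The cells were sorted on that protein. For 24 h they grew on plates coated with collagen, with a stiffness of 0.2 kPa in the soft, 8 kPa in the intermediate and 64 kPa in the stiff group. By its title, the study was about matrix stiffness and the passage of such cells to fibroblasts. There was 1 library per stiffness, which leaves every difference without a check against replicates and without a p-value. Differences between cultures cannot be told apart from differences between stiffness levels. Up to 2 synovia were digested per tube, and the ages and number of the mice are not given in the sources used here.

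Runx2 is the transcription factor on which the bone-forming osteoblast depends, and Sp7 (osterix) acts after it in the same lineage. Alpl is tissue-nonspecific alkaline phosphatase, a surface enzyme that degrades pyrophosphate, an inhibitor of mineral formation. Sox9 is the transcription factor required for cartilage formation, and Acan, the large proteoglycan aggrecan, is among its best known targets. Scx (scleraxis) marks tendon and ligament progenitors, and Tnmd (tenomodulin) is a membrane protein of more mature tendon cells.

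Among the bone members, Sp7 was lower on the stiff than on the soft plate and Runx1, Runx2 and Alpl were higher. To set these side by side, the DNA before the transcription starts of Runx1, Sp7 and Alpl is shown first. Each line gives the 250 bases before the start of the Ensembl canonical transcript, read 5′ to 3′ on the gene's own strand from GRCm39 with the GENCODE M39 annotation. All 3 genes lie on the minus strand. The windows are chr16:92623038-92623287 for Runx1, chr15:102275706-102275955 for Sp7 and chr4:137523711-137523960 for Alpl. Capitals mark matches, on either strand, to 5 searched motifs that are spelled out after the sequences.
Runx1: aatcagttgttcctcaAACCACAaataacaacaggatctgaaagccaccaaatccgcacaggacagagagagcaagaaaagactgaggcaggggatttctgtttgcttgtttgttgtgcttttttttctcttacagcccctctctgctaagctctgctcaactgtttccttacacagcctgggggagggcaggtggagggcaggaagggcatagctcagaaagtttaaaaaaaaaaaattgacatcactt
Sp7: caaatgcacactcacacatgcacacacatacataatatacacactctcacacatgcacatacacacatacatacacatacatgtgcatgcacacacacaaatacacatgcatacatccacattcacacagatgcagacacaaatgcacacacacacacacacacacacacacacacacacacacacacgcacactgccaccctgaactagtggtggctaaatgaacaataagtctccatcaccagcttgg
Alpl: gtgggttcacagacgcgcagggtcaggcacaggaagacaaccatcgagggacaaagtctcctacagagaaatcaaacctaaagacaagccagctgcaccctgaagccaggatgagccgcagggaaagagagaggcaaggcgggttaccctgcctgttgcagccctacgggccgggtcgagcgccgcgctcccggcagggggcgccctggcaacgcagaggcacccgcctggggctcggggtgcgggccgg
The Runx1 window held 1 RUNX match starting 234 bases before the start. The Sp7 window holds a long dinucleotide repeat, has 44.4% GC and 1 CG dinucleotide, and held no match. The Alpl window has 66.0% GC and 18 CG dinucleotides and also held no match. The canonical starts of Sp7 and Alpl lie inside longer gene models, and the deposited counts are per gene, so the values below do not say which start was used.

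The RUNX motif was searched as AACCACA. Over the windows of 9 members, that of Runx2 not being used here, 1 held it (Runx1), against 4.23% of 21751 windows of protein-coding genes. The AP-1 motif was searched as TGANTCA. It was in 1 window, that of Sox9, at 41 bases before the start, against 6.17% of all windows. The GC box, searched as GGGCGG, was in 2 (Msx1 and Acan), against 36.3% of all windows, and in Acan it occurred as 2 overlapping matches. None of the 9 windows held the TEAD motif, searched as GGAATG and present in 12.1% of all windows. None held the TATA box either, searched as TATAAA and present in 11.9%. This says only that these letters are not in these 250 bases. The median window of protein-coding genes had 53.2% GC.

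The members' positions in GRCm39, by GENCODE M39, are as follows. Runx1 spans chr16:92398354-92623037, Runx2 chr17:44806874-45125684, Sp7 chr15:102265038-102279370 and Alpl chr4:137469039-137524102. Msx1 spans chr5:37977829-37981928, Dlx5 chr6:6877804-6882092, Sox9 chr11:112673009-112678586 and Acan chr7:78702964-78764847. Scx spans chr15:76341563-76344281 and Tnmd chrX:132751720-132766326. The first 6 are on the minus strand and the last 4 on the plus strand. Sp7 and Scx share a chromosome but lie apart on it. Apart from Runx2 and Scx, the genes that overlap Runx1, Sox9 or Acan on the opposite strand had at most 3 reads in any library or were not in the table.

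The deposited value of a gene is its read count after scaling for library size, called normalized counts here. Wherever 3 values stand in a row they are in the order soft, intermediate, stiff. One read was worth 1.03, 0.943 and 1.03 normalized counts. The libraries held between 25487064 and 28081600 reads. A log2 ratio compares normalized counts plus 1 between 2 libraries, and its 95% interval is the exact Clopper-Pearson interval of the split of reads, without the added 1. These intervals hold counting error alone, because each stiffness had 1 library. Reads copied by PCR are not separate molecules, so even the counting error can be understated. The 3 comparisons share libraries and are not independent of each other. At these depths 57.1% of the 11873 genes with a mean of at least 50 had a stiff to soft interval that excluded 0. This held for 35.3% for intermediate over soft and 48.3% for stiff over intermediate, so an interval away from 0 is common.

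The labelled cell type was compared with marker genes. All 12 fibroblast genes had a mean of at least 50 and summed to 373841, 446180.0 and 524533 normalized counts, with Col1a1 between 78648 and 151834 normalized counts. Of 6 telocyte genes, Pdgfra (5118 to 6298), Cd34 (235 to 318) and Foxl1 (186 to 238) passed that minimum, while Efhd1 itself had 10, 5 and 3 reads. Macrophage RNA was present in all 3 libraries despite the sort: the summed level of 12 macrophage genes was 33865, 42425 and 72171 normalized counts, and none of the 12 was at 0. The 10 osteoclast genes summed to 8285, 8465 and 6648 in the same order, of which Ctsk was 5277, 4743 and 3809. No read fell on any of 6 erythroid genes, and 6 of 7 lymphocyte genes were at 0 in every library. Markers of late osteoblasts and osteocytes were near 0: none of 8 reached a mean of 50, their sum was 62.5, 60.3 and 44.1, and Mepe had no read. The chondrocyte list of 12 genes summed to 502, 562 and 767, of which Col2a1 was 576 in the stiff library, and Col9a1, Matn1, Cnmd and Snorc were at 0. The other sums were those of mural (2439 to 3372), Schwann (357 to 445), skeletal muscle (184 to 651, of which Acta1 was 168 to 622) and endothelial genes (178 to 225).

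**Figure D1:**
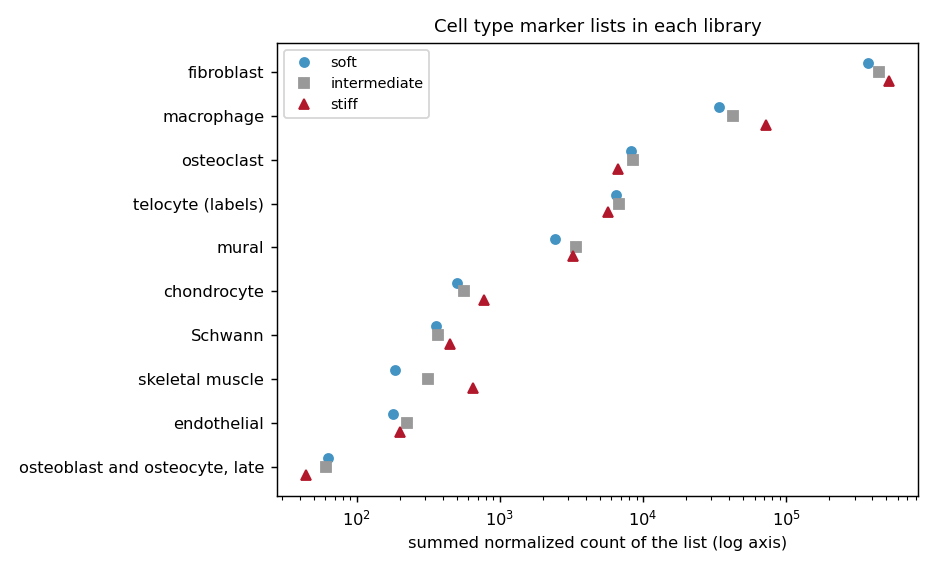
Summed normalized counts (log axis) of 10 cell type marker lists, with 1 point per library for soft, intermediate and stiff. The macrophage sum was 33865 in the soft and 72171 in the stiff library, and the sum of late osteoblast and osteocyte genes was at most 62.5.

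Of the 6 bone members, Sp7 had the lowest stiff to soft ratio. It had 1407, 1501 and 749.6 normalized counts. The soft and intermediate libraries were close to each other, and the stiff library stood apart below both. The stiff level was 1.88-fold lower than the soft level, with a counting interval from 1.71-fold to 2.06-fold. On the log2 scale the ratio was -0.91 for stiff over soft (interval -1.04 to -0.78), 0.09 for intermediate over soft (interval -0.01 to 0.20) and -1.0005 for stiff over intermediate (interval -1.13 to -0.87). Only 0.573% of the 11873 genes had a lower stiff to soft ratio than Sp7. The summed late osteoblast and osteocyte markers were at 62.5 at most, so those cells' defining genes were near 0 in all 3 libraries. In bulk RNA, fewer cells with Sp7 and less Sp7 RNA per cell cannot be told apart.

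Alpl was instead highest on the stiff plate, with 747, 944 and 1269 normalized counts, so each stiffer plate gave a higher value. The stiff level was 1.70-fold the soft level (counting interval 1.55 to 1.86). The log2 ratios were 0.34 for intermediate over soft (interval 0.20 to 0.48) and 0.43 for stiff over intermediate (interval 0.31 to 0.55). Of all genes with a mean of at least 50, 6.09% had a higher stiff to soft ratio.

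Runx2 was higher on both firmer plates. Its values were 777, 995 and 1012 normalized counts. Nearly the whole difference lay between soft and intermediate, with a log2 ratio of 0.36 (interval 0.22 to 0.49). Between intermediate and stiff the ratio was 0.02, and its interval held 0 (-0.10 to 0.15). The stiff to soft ratio was 0.38 (interval 0.24 to 0.52). Transcripts as long and GC-rich as that of Runx2 were themselves shifted by 0.21 in this comparison, and with that shift subtracted the ratio was 0.18, below the interval. The Runx2 gene overlaps 4 genes on the opposite strand. Of these Supt3 had 504, 505 and 459 normalized counts and Runx2os1 47.2, 44.3 and 54.3. Whether counting used strand is not given in the sources used here, and neither gene had an interval away from 0 in any comparison. Runx2os2, with 3, 7 and 13 reads, had a stiff to soft ratio of 1.81 (interval 0.25 to 4.57), and Runx2os3 had no read.

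Runx1, a RUNX factor known best from blood stem cells and also expressed in skeletal progenitors, had 1829, 2076 and 2535 normalized counts, higher at each step. The log2 ratio was 0.18 at the first step (interval 0.09 to 0.27), 0.29 at the second (interval 0.20 to 0.37) and 0.47 from soft to stiff (interval 0.38 to 0.56). Runx1 is also expressed in macrophages, and the summed macrophage list had the same order of libraries: all 11 of its genes with a mean of at least 50 had a stiff to soft interval above 0, against 31.3% of all genes with that mean, with log2 ratios from 0.31 to 1.41, and its sum had a ratio of 1.09. The part of macrophage RNA in the Runx1 value was not tested. Runx3, the remaining RUNX factor, had 20, 42 and 61 reads. Its log2 ratio of stiff to soft was 1.56 (interval 0.86 to 2.42), it lay below the minimum mean, and it was named after its values were seen.

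The homeobox factors Msx1 and Dlx5 act in early skeletal patterning and in osteoblast precursors. Msx1 had 295, 306 and 229 normalized counts. Like Sp7, it was close in the soft and intermediate libraries and lower in the stiff one, but by less: the log2 ratio was -0.37 for stiff over soft (interval -0.63 to -0.11) and -0.42 for stiff over intermediate (interval -0.67 to -0.17). Dlx5 was covered by 28, 22 and 28 reads. None of its 3 intervals excluded 0, and a difference between soft and stiff was not detectable at this depth (log2 ratio 0.00, interval -0.81 to 0.81).

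**Figure D2:**
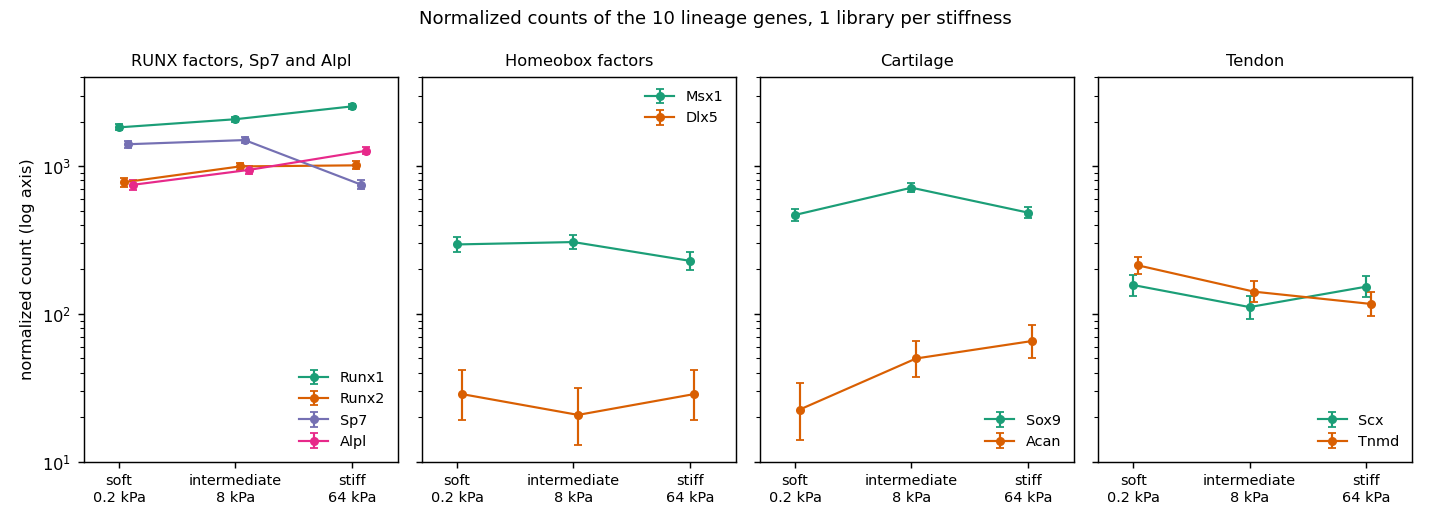
Normalized counts (log axis) of the 10 lineage genes, with exact 95% Poisson counting intervals. From the intermediate to the stiff library Sp7 went from 1501 to 749.6 and Alpl from 944 to 1269, and Sox9 was highest in the intermediate library.

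Ratios between pairs of these genes inside each library were computed per transcript length, which removes the library scaling. Alpl per Sp7 was 0.708 in the soft library (interval 0.646 to 0.775), 0.838 in the intermediate one (interval 0.773 to 0.907) and 2.26 on the stiff plate (interval 2.06 to 2.47). Alpl was thus below Sp7 on the softer plates and above it on the stiff plate. Runx2 per Sp7 was 0.289, 0.347 and 0.706 in the same order, with intervals that did not overlap. Runx1 per Runx2 was 2.60, 2.30 and 2.76, and the soft interval overlapped both others. The intermediate (2.14 to 2.48) and stiff (2.56 to 2.98) intervals did not overlap. These pairs, 5 with those given for the cartilage and tendon genes, were chosen with the values known.

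Sox9 had its highest value in the intermediate library. It had 467, 715 and 485 normalized counts, and the outer values were close to each other. The log2 ratio was 0.61 for intermediate over soft (interval 0.44 to 0.78) and -0.56 for stiff over intermediate (interval -0.73 to -0.39). Between stiff and soft it was 0.05, and the interval held 0 (-0.14 to 0.24). An intermediate value above both others with both intervals away from 0 was found in 4.03% of genes. Of all genes with a mean of at least 50, 2.06% had a higher intermediate to soft ratio than Sox9.

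Acan did not follow Sox9. It was covered by 22, 53 and 64 reads, which are 22.6, 49.96 and 65.6 normalized counts. The soft library was the low one, and the firmer plates had overlapping counting intervals. The stiff level was 2.91-fold the soft level, with a wide interval from 1.77 to 4.96. On the log2 scale the ratio was 1.50 for stiff over soft (interval 0.82 to 2.31), 1.11 for intermediate over soft (interval 0.41 to 1.94) and 0.39 for stiff over intermediate (interval -0.15 to 0.95). Genes of similar transcript length and GC content were shifted by 0.53 in the stiff over soft comparison, and the ratio was 0.97 with this shift subtracted. The Acan transcript, with 7622 nucleotides, is the longest of the 10. Acan per Sox9, per transcript length, was 0.0264, 0.0383 and 0.0741, with an interval of 0.0562 to 0.0964 in the last, above both others.

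Scx had its lowest value in the intermediate library, the reverse of Sox9. It had 157, 111 and 153 normalized counts. The log2 ratio was -0.49 at the first step (interval -0.85 to -0.14) and 0.45 at the second (interval 0.10 to 0.82). From soft to stiff it was -0.04, with an interval that held 0 (-0.37 to 0.30). An intermediate value below both others, with both intervals away from 0, was found in 2.8% of genes. Scx overlaps Bop1, a ribosome assembly gene on the opposite strand, which had 2092, 2075 and 2406 normalized counts. Without strand the reads of overlapping genes cannot be told apart. Bop1 had a ratio of -0.01 at the first step (interval -0.10 to 0.08), 0.21 at the second (interval 0.13 to 0.30) and 0.20 from soft to stiff (interval 0.12 to 0.29). Its second step has the sign of that of Scx, and its part in the Scx value was not tested.

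Tnmd was lower on each firmer plate. It had 213, 141 and 117 normalized counts. The stiff level was 1.82-fold lower than the soft level, with a counting interval from 1.44-fold to 2.31-fold. The log2 ratio was -0.59 at the first step (interval -0.91 to -0.28) and -0.27 at the second, where the interval held 0 (-0.64 to 0.09). Only 0.674% of all genes had a lower stiff to soft ratio than Tnmd, and 0.320% had a lower intermediate to soft ratio. Scx and Tnmd therefore had different profiles: on the stiff plate Scx was at its soft level within counting error and Tnmd was not. Scx per Tnmd, per transcript length, was 0.734 (interval 0.592 to 0.909), 0.786 (interval 0.612 to 1.01) and 1.31 (interval 1.02 to 1.68).

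**Figure D3:**
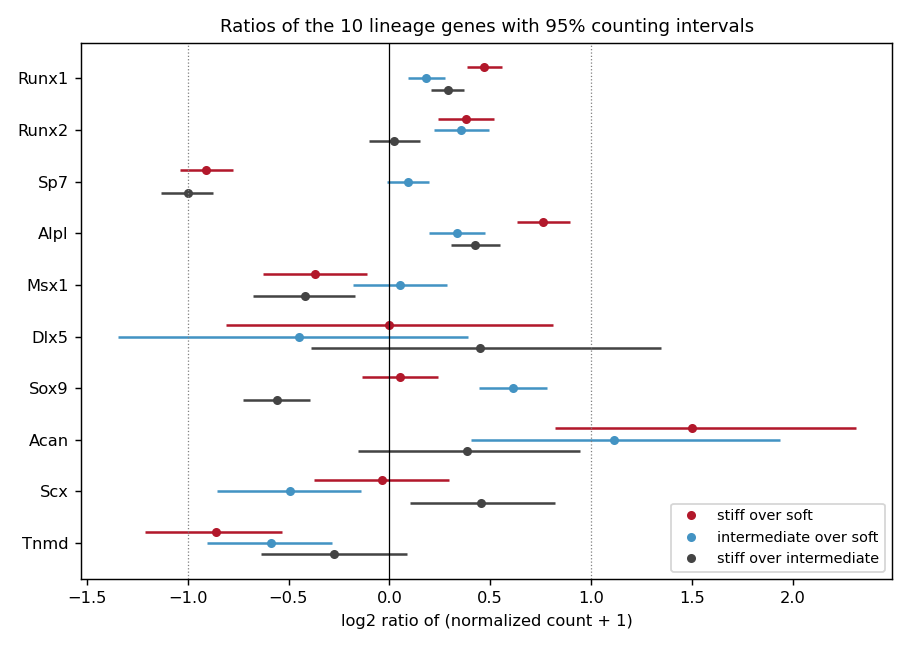
Log2 ratios of normalized counts plus 1 for the 10 genes, with exact 95% counting intervals as bars and dotted lines at -1 and 1. Sp7 and Tnmd lay lowest in stiff over soft (-0.91 and -0.86), Acan highest (1.50, on 22 and 64 reads), and the intervals of Dlx5 held 0 in all 3 comparisons.

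Counted together, the 10 genes had no common direction. In stiff over soft, 4 intervals lay above 0 (Runx1, Runx2, Alpl and Acan) and 3 below 0 (Sp7, Msx1 and Tnmd), and 3 held 0. In intermediate over soft 5 lay above 0 and 2 below, and in stiff over intermediate 3 and 3. Over the 8 members with a mean of at least 50, the counts above and below 0 were 3 and 3 in stiff over soft, against 31.3% and 25.9% of all genes with that mean. They were 4 and 2 in intermediate over soft, against 21.8% and 13.5%, and 3 and 3 in stiff over intermediate, against 26.3% and 22%. Of the 8 genes with a mean of at least 50, the median log2 ratio was 0.01 for stiff over soft, 0.14 for intermediate over soft and -0.12 for stiff over intermediate. The same medians over all 11873 genes were 0.00, 0.01 and 0.01.

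A log2 ratio of at least 1 in size with a mean of at least 50 was reached by none of the 10 genes in stiff over soft, against 3.6% of all genes, and by none in intermediate over soft, against 0.168%. In stiff over intermediate it was reached by 1, Sp7, against 1.25%. Sp7 lay on the threshold, at -1.0005. Just outside the minimum mean, Acan passed the same ratio in stiff over soft and in intermediate over soft. With a pseudocount of 10 the Acan ratio was 0.88 for intermediate over soft and 1.22 for stiff over soft, the latter still past 1. With the shift of genes of similar length and GC content subtracted these ratios were 0.84 and 0.97, both below 1. At a log2 ratio of at least 0.5 in size there were 3 members in stiff over soft (Sp7, Alpl and Tnmd), against 15.6% of all genes. There were 2 in intermediate over soft (Sox9 and Tnmd), against 4.6%, and 2 in stiff over intermediate (Sp7 and Sox9), against 8.84%. No member had a ratio of at least 0.5 at both steps in one direction, against 1.04% of genes upward and 0.0421% downward. Runx1 and Alpl had intervals above 0 at both steps, as did 10.6% of all genes. No member had intervals below 0 at both steps, against 4.4% of all genes.

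**Figure D4:**
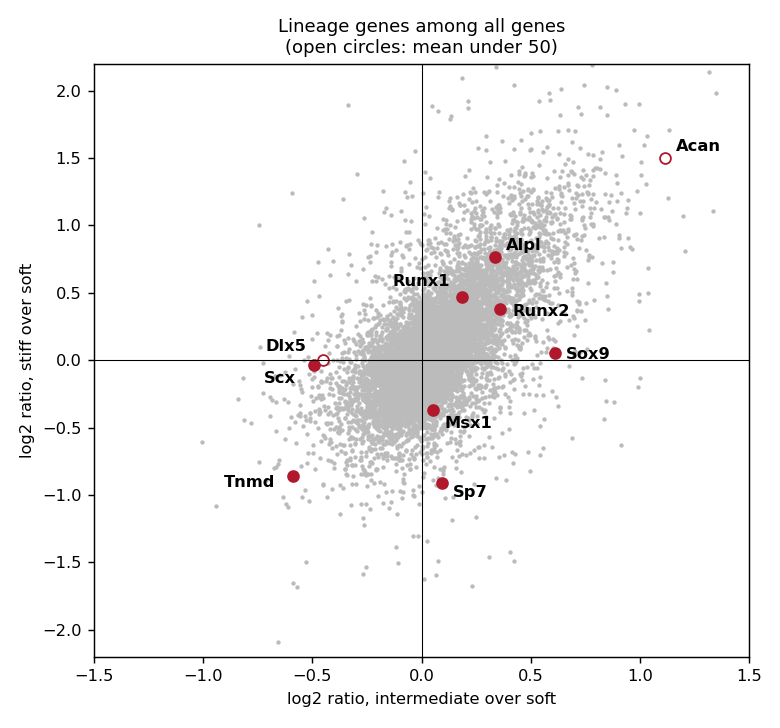
Each grey point is a gene with a mean of at least 50, by its log2 ratio of intermediate over soft (x axis) and stiff over soft (y axis), which share the soft library. Sp7 lies at 0.09 and -0.91 and Sox9 at 0.61 and 0.05. The 10 lineage genes are red circles, open for Acan and Dlx5, whose means were under 50, and 9 of 11873 grey points lie outside the axes.

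Levels of the members were compared with each other as normalized counts per kb of canonical transcript. In the soft library Sp7 was highest at 416 per kb, followed by Runx1 (312) and Alpl (295), whose Poisson intervals overlapped. Next came Tnmd (157) and Msx1 (153), which did not differ beyond counting error, then Runx2 (120.2), Scx (115) and Sox9 (112), which did not either. Dlx5 was at 20.1 per kb and Acan lowest at 2.96. The intermediate library had the order Sp7 (444), Alpl (372), Runx1 (354), Sox9 (171), Msx1 (158), Runx2 (154), Tnmd (104), Scx (81.6), Dlx5 (14.5) and Acan (6.56). The neighbours Alpl and Runx1, Sox9 and Msx1, Msx1 and Runx2, and Tnmd and Scx overlapped there. In the stiff library Alpl was first at 500.0 per kb, followed by Runx1 at 433 and Sp7 at 222, all apart from each other. Below them were Runx2 (157), Msx1 (118), Sox9 (116), Scx (112), Tnmd (85.8), Dlx5 (20.1) and Acan (8.61), with overlap among Msx1, Sox9 and Scx and between Scx and Tnmd. The median over 11655 genes with a mean of at least 50 and an annotated length was 219.5, 225 and 229 per kb. Sp7, Runx1 and Alpl were above the median on the soft plate. On the stiff plate Runx1 and Alpl were above it, and the Sp7 interval (206 to 238) held it. Acan was above 0.575% of those genes at most, in the stiff library.

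A wider bone list of 32 genes included the 6 bone members. Of its 26 other genes, 16 had a mean of at least 50. In stiff over soft, 3 of the 16 had an interval above 0 and 10 below 0, against 31.3% and 25.9% of all genes, with a median log2 ratio of -0.29. In intermediate over soft, 7 lay above 0 and 2 below, against 21.8% and 13.5%, with a median of 0.06. In stiff over intermediate, 2 lay above 0 and 11 below, against 26.3% and 22%, with a median of -0.33. Spp1 (osteopontin, an acidic protein that binds mineral), the one with the most reads, had 316083, 262242 and 140702 normalized counts, a stiff to soft log2 ratio of -1.17 (interval -1.18 to -1.16). Macrophages and osteoclasts also express Spp1. The summed macrophage list was 33865, 42425 and 72171 and the summed osteoclast list 8285, 8465 and 6648. Ctsk made up 5277, 4743 and 3809 of the osteoclast sum. Of the 7 osteoclast genes with a mean of at least 50, 3 had a stiff to soft interval above 0 and 3 below 0. This was against 31.3% and 25.9% of all genes. The part of macrophage and osteoclast RNA in the Spp1 value was not tested.

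The genes Ank and Enpp1, which supply pyrophosphate, were lower on the stiff plate, where Alpl was higher. Ank, a membrane protein needed for pyrophosphate release, had 20934, 22042 and 11402 normalized counts, with a stiff to soft log2 ratio of -0.88 (interval -0.91 to -0.84). Enpp1, the enzyme that makes pyrophosphate, had 8448, 8777 and 5456, with a ratio of -0.63 (interval -0.68 to -0.58). Both showed the profile of Sp7, close on the soft and intermediate plates and lower on the stiff one. Bmp2, a ligand that induces bone, had 314, 442 and 177 normalized counts, with a ratio of 0.49 (interval 0.28 to 0.71) at the first step and -1.31 (interval -1.58 to -1.06) at the second. Phex, an osteocyte endopeptidase named after its values were seen, had 22 and 25 reads in the soft and intermediate libraries and 5 in the stiff library. The osteoblast products Bglap2 and Ibsp had at most 22 and 10 reads in any library, and none of their intervals excluded 0.

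Of 30 other genes in the cartilage list, 15 had a mean of at least 50. In stiff over soft 8 had an interval above 0 and 4 below 0, against 31.3% and 25.9% of all genes, with a median of 0.27. In intermediate over soft 9 lay above 0 and 1 below, against 21.8% and 13.5%, with a median of 0.16. In stiff over intermediate 7 lay above and 5 below, against 26.3% and 22%, with a median of 0.10. Col2a1, the main collagen of cartilage, had 209, 329.9 and 576 normalized counts, with a stiff to soft ratio of 1.46 (interval 1.23 to 1.70). Its order of libraries was that of Acan and not that of Sox9, while Hapln1, the link protein that binds aggrecan to hyaluronan, was lower, with 178, 124 and 86.1 and a ratio of -1.04 (interval -1.44 to -0.67). Sox5, a partner of Sox9, had 222, 359 and 149 normalized counts. Like Sox9 it was highest in the intermediate library, with ratios of 0.69 (interval 0.45 to 0.94) and -1.27 (interval -1.56 to -0.99) at the first and second step. Sox6, another partner, had 51.3, 59.4 and 63.6, and none of its intervals excluded 0. The transcription factor Zbtb20 had 234, 329.9 and 501, a stiff to soft ratio of 1.10 (interval 0.87 to 1.33). The genes of the list with the most reads, not scaled by length, were Comp, a cartilage and tendon matrix protein (30733 to 36845, stiff to soft ratio 0.26), Prg4, the joint lubricant lubricin (3742 to 5770.5, ratio 0.62), and Chst11, a chondroitin sulfotransferase (2869 to 4769, ratio -0.62).

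Of 24 other genes in the tendon list, 21 had a mean of at least 50, and none reached a log2 ratio of 1, against 3.6% of all genes in stiff over soft, 0.168% in intermediate over soft and 1.25% in stiff over intermediate. In stiff over soft 9 had an interval above 0 and 7 below 0, against 31.3% and 25.9% of all genes, with a median of 0.05. In intermediate over soft 10 lay above 0 and 3 below, against 21.8% and 13.5%, with a median of 0.11. In stiff over intermediate 5 lay above and 9 below, against 26.3% and 22%, with a median of -0.05. Those with the most reads were Bgn (biglycan, 91849.5, 104743 and 116582 normalized counts), Tnc (tenascin C, 25232, 33352 and 29732) and Prrx1, a limb mesenchyme factor (28679.6, 27843 and 19953). Their stiff to soft ratios were 0.34, 0.24 and -0.52. Mkx (Mohawk), a tendon transcription factor, had 115, 105 and 98.4 normalized counts, and none of its intervals excluded 0. Angptl7, below the minimum mean and named after its values were seen, had 12, 22 and 92 reads.

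RUNX factors bind DNA with the partner protein Cbfb and with co-regulators, of which 20 were listed. Of these 18 had a mean of at least 50. In stiff over soft 6 had an interval above 0 and 3 below 0, against 31.3% and 25.9% of all genes, with a median of -0.01. In intermediate over soft 7 lay above 0 and 1 below, against 21.8% and 13.5% (median 0.02). In stiff over intermediate 3 lay above and 5 below, against 26.3% and 22% (median -0.05). Cbfb itself, in this list and the bone list, had 4671, 4503 and 3649.8 normalized counts, a stiff to soft ratio of -0.36 (interval -0.42 to -0.29), against 0.47 and 0.38 for Runx1 and Runx2. Those with the most reads were Wwtr1 (TAZ), Tle5 and Yap1, with stiff to soft ratios of -0.31, 0.27 and -0.02. Hdac4, a deacetylase known to bind Runx2, had 530.0, 817 and 890.1 normalized counts, and its ratio of intermediate over soft was 0.62 (interval 0.47 to 0.78).

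**Figure D5:**
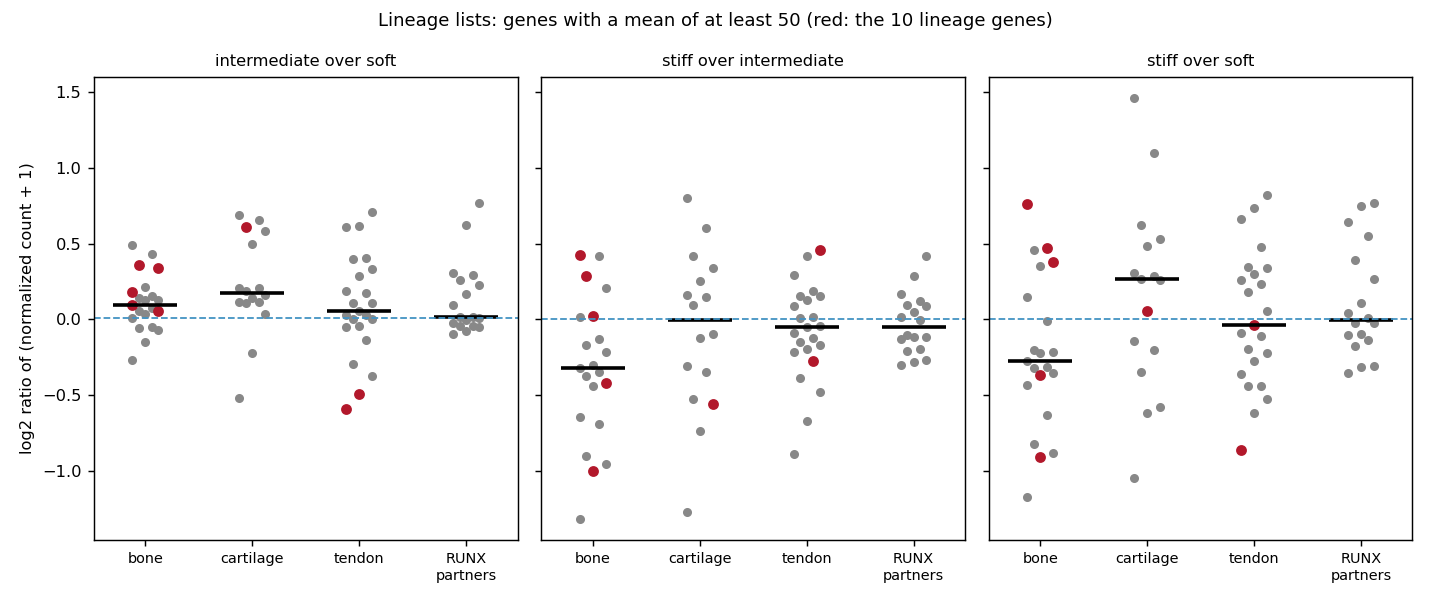
Log2 ratios, for genes whose mean reached 50, in the bone, cartilage, tendon and RUNX partner lists, 1 panel per comparison. Red points are the lineage genes, black bars the medians of the lists with those genes included, and the dashed line the median of all 11873 genes, and the bone list had its lowest median, -0.32, in stiff over intermediate.

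For each of the 8 genes with a mean of at least 50, the 3 genes nearest in the 2 log2 ratios to the soft library were found among 11405 named genes, over 3 libraries. The distance is Euclidean on the log2 scale. The genes nearest to Sp7 were Fabp3, a fatty acid binding protein (distance 0.035), Ank (0.036) and Hao1, an oxidase of hydroxy acids (0.046). The genes nearest to Sox9 were Stap1, a signalling adaptor (0.018), Lif, an IL-6 family cytokine (0.043), and Ereg, an EGF receptor ligand (0.044). Ereg had 5424, 8041 and 5662 normalized counts. Tnmd had the most distant neighbours, Crabp1, a retinoic acid binding protein (0.087), Chrna1os (0.10) and Ctla2a (0.11). Nearest to Runx1 was Zfp575 (0.0063), to Runx2 Kdm3b (0.0035), to Alpl Ggn (0.010), to Msx1 Sat2 (0.010) and to Scx Fsd1l (0.010). With 3 libraries many genes lie close to any profile.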

How the data were processed

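RNA was sequenced from 3 cultures of sorted mouse ankle synovium cells, with a TruSeq stranded mRNA kit per the labels' protocols. The submitters' processing notes name bcl2fastq 2.20.0, STAR 2.7.9a, featureCounts, Subread 2.0.1, DESeq2 1.34.0 and the genome build GRCm39; the annotation and strand setting are not given in the sources used here. The deposited values are a signal, gene counts divided by 1 size factor per library by the authors, normalized by DESeq2 per the file names. The 3 deposited files held identical values, and 1 was used. In each column 100.0% of values were within 0.001 of a whole multiple of its lowest positive value, taken as 1 read. A count test needs replicates and was not made.

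Log2 ratios used a pseudocount of 1, so they understate changes of low genes. Genes counted as past the fold had a ratio of at least 1 in size and a mean of at least 50. A count of 0 allows up to 3 reads, worth 2.83 to 3.08 normalized counts. Transcript lengths, GC content and promoter sequence came from GENCODE M39 and GRCm39, matched by symbol (11655 of 11873 genes). The members, lists and tests were chosen with earlier results of these data known. Named genes were the 10 members, list genes with a mean of at least 50 and a ratio of at least 1 in size, the 3 of each list with the highest mean, and the 3 nearest genes per member; others were named after their values were seen, where said, or for their known role: Runx3, Phex, Bglap2, Ibsp, Sox6, Mkx, Angptl7, Cbfb and Hdac4. Ratios and intervals were also run on simulated data drawn with counting error alone, which says nothing about differences between cultures. The software was scipy 1.17.1, numpy 2.4.6, matplotlib 3.10.9 and pandas 2.3.3 under Python 3.11.15.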

Additional observations from a re-analysis of the deposited data

How the results depend on the processing

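With 1 library per stiffness, leaving out a replicate was not possible. No paired analysis was possible because each level had 1 library. Of 30 ratios (10 genes, 3 comparisons), 29 stayed within their counting intervals under pseudocounts of 0.1 and 10, 3 other scalings and subtraction of the shift of genes of similar length and GC content. The exception was Runx2 in stiff over soft, at 0.18 with that shift subtracted, and no ratio whose interval excluded 0 changed sign. The scalings moved the median stiff to soft ratio by -0.06 to -0.005.

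Sp7 sat on the fold threshold in stiff over intermediate. The number of members past it was therefore 0 in place of 1 with a pseudocount of 10. That number was also 0 with the median ratio set to 0, a median taken over genes whose mean reached 100. With a minimum mean of 10, and with none, Acan was added, giving 1 member in stiff over soft and 1 in intermediate over soft. At a log2 ratio of at least 0.5 there were 3 in stiff over soft, 2 in intermediate over soft and 2 in stiff over intermediate. At 0.25 per step 2 members moved one way over both steps, in place of 0. Over all genes, a minimum mean of 10 gave 595 higher and 227 lower in stiff over soft, in place of 382 and 46, and 124 and 91 in intermediate over soft, in place of 19 and 1. Depth limits Dlx5 (at most 28 reads) and Acan (22 reads in the soft library).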
